A study of Mus musculus with 10 samples.

Results

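Pulmonary surfactant genes and other genes that mark alveolar type 2 cells were examined in whole mouse lung after arsenic exposure. The set was 10 genes: the surfactant proteins Sftpa1, Sftpb, Sftpc and Sftpd, the lamellar body genes Abca3, Lamp3 and Napsa, the phosphate transporter Slc34a2, the lipid enzyme Lpcat1 and the transcription factor Etv5. Members were all probe sets whose only gene symbol in the platform annotation was one of these names. A probe set is a group of short oligonucleotides on the array that reads one transcript. 9 of the 10 genes had such a probe set, out of 18194 genes in the table, and they had 20 probe sets in all. The single probe set of Lamp3, a lamellar body membrane protein, is annotated to a second gene as well, Ppid, so Lamp3 has no value here.

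Lungs came from 10 adult female C57BL/6 mice, an inbred strain, with 1 animal per array. In the arsenic group, 5 mice drank water with 50 ppm arsenic for 12 weeks, beginning at 8 weeks of age, and in the control group 5 mice drank deionized water. The series names the compound as arsenate and the sample protocols name arsenite, so it is called arsenic here. A number in the titles is 20 for the whole arsenic group and 4 for all controls. What it stands for is not given in the sources used here, and whatever it stands for cannot be told apart from arsenic. Values are on the log2 scale, so a difference of 1 is a doubling. Array medians lay between 4.11 and 4.26, array maxima between 16.20 and 16.32, and arrays correlated at 0.990 to 0.997 over probe sets. Precision is limited by the number of arrays.

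Alveolar type 2 cells line the air sacs of the lung, make surfactant and act as progenitors of the flat type 1 cells that exchange gas. Surfactant is a film of phospholipid, mostly dipalmitoylphosphatidylcholine, and of protein; it lowers surface tension so that the air sacs do not collapse at the end of a breath. Its lipid and its hydrophobic proteins are stored in lamellar bodies, lysosome-related organelles, until they are secreted. Sftpa1, Sftpb and Sftpd are also transcribed by club cells of the airways, and Napsa also by the kidney. In RNA from whole lung, fewer cells of a type and less RNA per cell cannot be told apart.

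No surfactant or type 2 cell gene of the set passed the test between arsenic and control lungs. Of the 20 probe sets, 17 passed the filter on dim values (above 4.20, the median of the table, on at least 5 arrays), and each of the 9 genes kept at least 1. By limma with Benjamini-Hochberg adjustment over all 22495 probe sets tested, 0 of the 17 passed an adjusted p of 0.05, against 99 of all probe sets (0.44%), which were 59 higher with arsenic (0.262%) and 40 lower (0.178%). At an unadjusted p under 0.05 there were also 0 of 17, against 17.2% of all probe sets and 6.1% of the 689 with a mean of at least 13. In 0 of 17 did the 5 arsenic arrays lie wholly above or below the 5 control arrays, against 3.86% of all. Adjusted p-values of the 17 ranged from 0.324 to 0.982.

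The differences were small and mostly below 0. The arsenic mean was lower for 15 of the 17 probe sets and higher for 2, with a median difference of -0.05, where 44.7% of all probe sets were lower and their median difference was 0.03. Among probe sets with a mean of at least 13, 47.3% were lower. With each array centred on its own median, 8 were lower and 9 higher, with a median difference of 0.01. Centring moved the background as well, to 33.8% of all probe sets lower and a median of 0.09. With a kidney marker level, described further on, as a covariate, 8 were lower and 9 higher, where 43.6% of all probe sets were lower. That level was itself higher on average with arsenic, so this fit cannot fully separate it from arsenic. The split was 11 lower and 6 higher without arsenic animal 3, and the same without arsenic animal 4. It was 10 and 7 without arsenic animal 4 and control animal 2 together. Probe sets of 1 gene share their transcript, so the 17 are not independent.

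**Figure D1:**
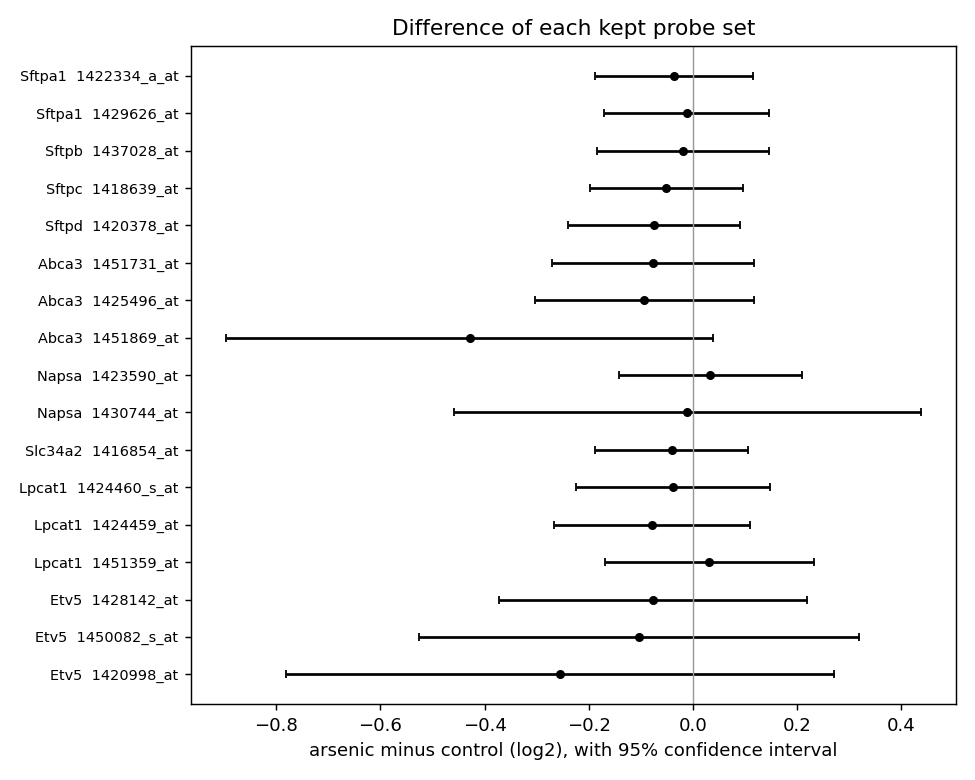
Arsenic minus control difference (log2, horizontal axis) of each of the 17 kept probe sets, with bars for the 95% confidence interval from limma and a line at 0. Every interval includes 0; the widest are those of the dimmer probe sets of Etv5, Napsa and Abca3, such as Abca3 1451869_at at -0.43.

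Sftpc encodes surfactant protein C, the most specific product of alveolar type 2 cells, and its probe set 1418639_at stood near the top of the scale. The arsenic animals 1 to 5 had 16.06, 16.04, 15.95, 16.05 and 16.07. The control animals 1 to 5 had 16.04, 16.00, 16.18, 16.05 and 16.16. The control animals 3 and 5 were the highest and arsenic animal 3 was the lowest, and the groups overlapped. The mean was 16.03 ± 0.05 with arsenic and 16.08 ± 0.08 in controls (SD, n = 5 each), a difference of -0.05 with an adjusted p of 0.702 by limma. Its 95% confidence interval, -0.20 to 0.10, corresponds to a change of -12.8% to 6.88% on the linear scale.

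Only 4 of the 45101 probe sets in the table had a higher mean than Sftpc, among them those of the club cell secretory protein Scgb1a1 (16.27) and lysozyme Lyz1 (16.24). On each array the Sftpc value lay 0.126 to 0.251 below the highest value of that array. Spread within groups shrank with level over the whole table: the median residual SD was 0.25 between 6 and 8, 0.15 between 10 and 12, and 0.07 at 14 and above, and 0 of the 299 probe sets at 14 and above passed the threshold. Of the surfactant and type 2 cell probe sets, 6 lay in that top range, and the residual SD of Sftpc was 0.07. Whether such bright probe sets follow the RNA in proportion was not tested, so the intervals here describe the array value.

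**Figure D2:**
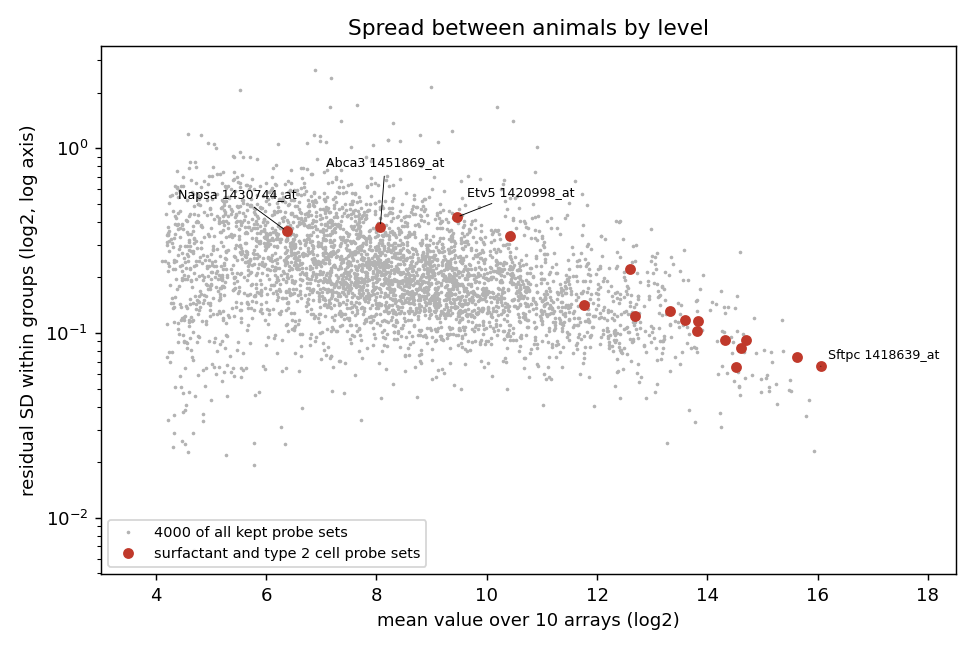
Residual standard deviation within groups (log2, on a log axis) against the mean value over 10 arrays (log2), for 4000 of the kept probe sets in grey and the 17 surfactant and type 2 cell probe sets in red. The spread falls as the level rises, to a median of 0.07 at 14 and above. The red points fall with level too, but several lie high for their level. All Etv5 probe sets exceed the upper quartile of the kept probe sets in their level range, such as 1428142_at (0.222 against 0.174). So do Abca3 1451869_at (0.373 against 0.267) and, narrowly, Napsa 1430744_at (0.356 against 0.354).

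The second Sftpc probe set, 1438290_x_at, was under the filter on all arrays, at 2.85 to 2.98. Also under the filter were 1420294_at (3.10 to 3.46) and 1420293_at (2.81 to 3.12) of Lpcat1. These 3 were dim in all 10 animals, while other probe sets of the same genes were bright.

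**Figure D3:**
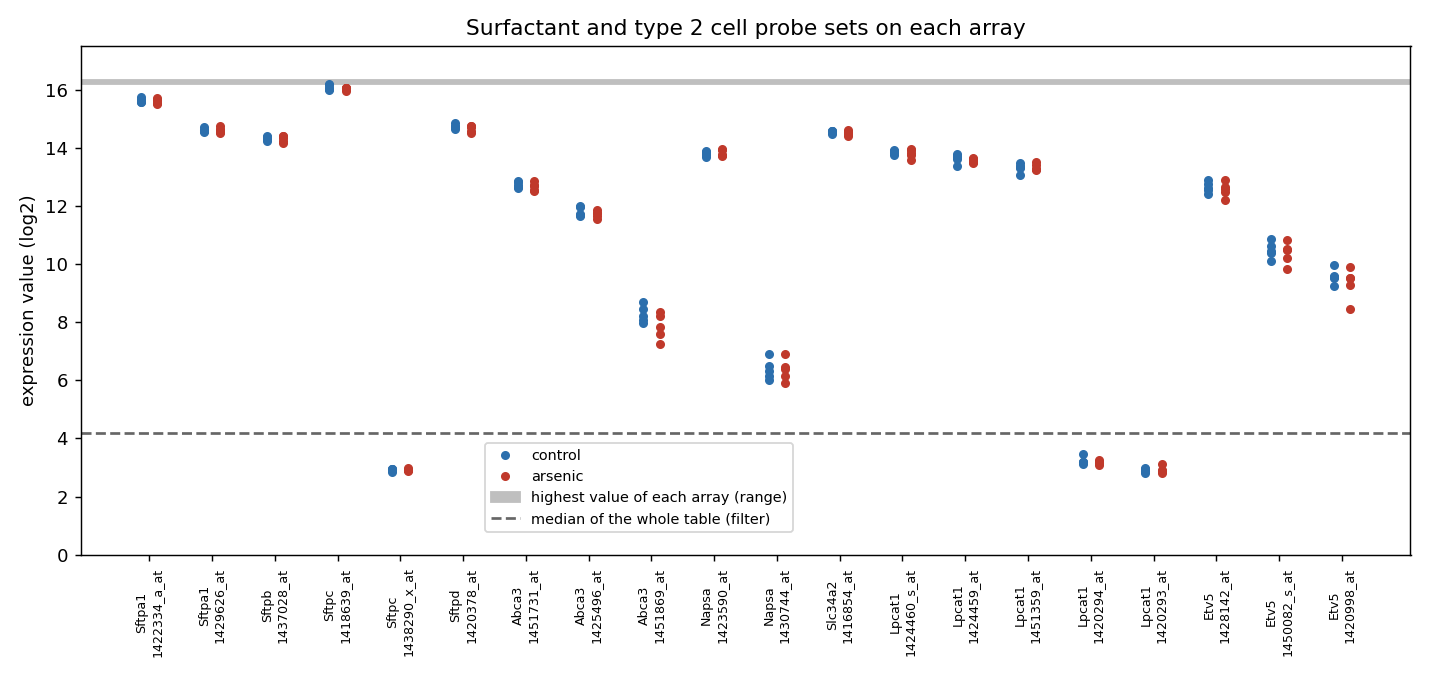
Value of each of the 20 probe sets on each array (log2, vertical axis), with control arrays in blue and arsenic arrays in red. The grey band is the range of array maxima, 16.20 to 16.32, and the dashed line is the median of the table, 4.20; Sftpc 1418639_at lies just under the band and 3 probe sets lie under the line.

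The hydrophilic surfactant proteins A and D are collectins, which bind microbes and help to clear surfactant. For Sftpa1 (1422334_a_at) the arsenic animals 1 to 5 had 15.64, 15.64, 15.52, 15.52 and 15.69, and the control animals 15.58, 15.57, 15.69, 15.62 and 15.73. Arsenic animals 3 and 4 were the lowest and control animal 5 the highest, with the others interleaved. The difference was -0.04 (95% confidence interval -0.19 to 0.12). Its other probe set, 1429626_at, differed by -0.01.

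For Sftpd (1420378_at) the arsenic animals had 14.73, 14.73, 14.51, 14.57 and 14.74, and the control animals 14.72, 14.65, 14.73, 14.71 and 14.84. The same 2 arsenic animals, 3 and 4, lay below all 5 controls and the other 3 lay among them. The means were 14.66 ± 0.11 with arsenic and 14.73 ± 0.07 in controls, a difference of -0.07 (95% confidence interval -0.24 to 0.09, adjusted p = 0.618 by limma).

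Sftpb encodes surfactant protein B, which is needed to form lamellar bodies and to spread the lipid film. The arsenic animals had 14.35, 14.39, 14.23, 14.16 and 14.41 at 1437028_at, and the control animals 14.29, 14.34, 14.38, 14.22 and 14.41. The 2 groups spanned nearly the same range. The difference of -0.02 had a 95% confidence interval of -0.18 to 0.15.

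The bases just upstream of the transcription start of Sftpa1 and Sftpb are shown because both genes have a known dependence on the homeodomain factor NKX2-1 and their values moved together over the animals, as described further on. The sequences are RefSeq's for GRCm38.p6, 250 bases ending just before the start, read 5′ to 3′ along the gene. Capitals mark matches on either strand to CTCAAG (an NKX2-1 core), CAAGTG (a core of NKX homeodomain factors; CACTTG on the other strand) and GNAAACA (a forkhead core, FOXA).
Sftpa1, chr14:41131538-41131787, plus strand: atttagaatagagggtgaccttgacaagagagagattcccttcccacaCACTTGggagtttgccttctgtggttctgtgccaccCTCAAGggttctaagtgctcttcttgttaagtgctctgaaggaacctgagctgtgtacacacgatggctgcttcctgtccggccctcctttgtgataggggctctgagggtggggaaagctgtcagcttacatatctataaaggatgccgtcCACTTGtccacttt
Sftpb, chr6:72304360-72304609, plus strand: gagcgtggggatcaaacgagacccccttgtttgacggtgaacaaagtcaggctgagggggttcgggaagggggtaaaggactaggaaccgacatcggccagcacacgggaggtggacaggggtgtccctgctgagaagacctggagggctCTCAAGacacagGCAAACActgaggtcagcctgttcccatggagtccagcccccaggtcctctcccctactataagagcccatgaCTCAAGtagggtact

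The Sftpa1 stretch held CTCAAG at 166 to 161 bases before the start, and CACTTG at 202 to 197 and at 14 to 9 bases. The Sftpb stretch held CTCAAG at 100 to 95 and at 15 to 10 bases, with GCAAACA at 88 to 82 bases. CTCAAG occurred in 13.3% of the 32817 promoter stretches of that length in the RefSeq table, CAAGTG in 11.6% and GNAAACA in 17.8%, and CTCAAG and CAAGTG can overlap by the 4 bases they share. A match is a description of letters and not a site. 7 of the 10 genes had an entry in that table, and Sftpc, Sftpd and Napsa had none. Of the 7, CTCAAG was found in 2, CAAGTG in 1, GNAAACA in 3 and the ETS core CCGGAA, held by 12.0% of all promoters, in 1.

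Abca3 encodes the transporter that pumps phospholipid into lamellar bodies. Its brightest probe set, 1451731_at, ranged from 12.50 to 12.87 and differed by -0.08, and 1425496_at ranged from 11.54 to 11.98 and differed by -0.09. The dimmer 1451869_at had 8.36, 7.61, 7.26, 7.84 and 8.20 in arsenic animals 1 to 5, and 8.69, 8.47, 8.20, 8.08 and 7.99 in control animals 1 to 5. Arsenic animals 2, 3 and 4 lay below all controls, and arsenic animals 1 and 5 lay among them. The means were 7.85 ± 0.44 and 8.28 ± 0.29 (SD, n = 5 each). The difference of -0.43 (SE 0.21, 95% confidence interval -0.90 to 0.04) was the largest of the 17 in size and did not pass (adjusted p = 0.324 by limma).

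The 3 Abca3 probe sets ranked the animals differently. The 2 brighter ones moved together (Pearson's r = 0.923 over 10 arrays; adjusted permutation p = 0.00066 among the 11 pairs of probe sets of 1 gene), while 1451869_at gave r of 0.345 and 0.218 with them. No difference in transcript or probe position between them was examined.

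Napsa encodes napsin A, an aspartic protease that processes proprotein forms of surfactant proteins B and C. Its bright probe set, 1423590_at, ranged from 13.71 to 13.97 in arsenic and from 13.67 to 13.88 in control animals, a difference of 0.03. The dimmer 1430744_at ranged from 5.92 to 6.90 over both groups and differed by -0.01. They followed each other over the animals (r = 0.822, adjusted permutation p = 0.00744), and neither passed the test.

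Lpcat1 encodes the acyltransferase that makes dipalmitoylphosphatidylcholine in type 2 cells. Its 3 bright probe sets differed by -0.04 (1424460_s_at), -0.08 (1424459_at) and 0.03 (1451359_at), with means near 13 to 14 in both groups. The first ranged from 13.57 in arsenic animal 3 to 13.94 in arsenic animal 5, and all 5 controls, 13.75 to 13.92, lay between them. The widest of the 3 confidence intervals of 95% was -0.17 to 0.23.

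Slc34a2 encodes the sodium-phosphate cotransporter of the type 2 cell's apical membrane, which clears phosphate left by surfactant breakdown. At 1416854_at the arsenic animals had 14.49, 14.56, 14.47, 14.40 and 14.60, and the control animals 14.57, 14.58, 14.57, 14.45 and 14.55. Control animal 4 and arsenic animals 1, 3 and 4 were low, and the other 6 lay close together. The difference was -0.04 (95% confidence interval -0.19 to 0.11, adjusted p = 0.766 by limma).

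Etv5 encodes an ETS transcription factor that acts below FGF signalling and helps to maintain type 2 cell identity. At its brightest probe set, 1428142_at, the arsenic animals had 12.49, 12.63, 12.60, 12.19 and 12.89, and the control animals 12.62, 12.89, 12.74, 12.39 and 12.55. Arsenic animal 4 was the lowest, and arsenic animal 5 and control animal 2 were the highest. The difference of -0.08 had a 95% confidence interval of -0.37 to 0.22 (adjusted p = 0.783 by limma). The probe sets 1450082_s_at and 1420998_at differed by -0.10 and -0.26, and over the animals the 3 probe sets correlated at r of 0.944 to 0.984.

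**Figure D4:**
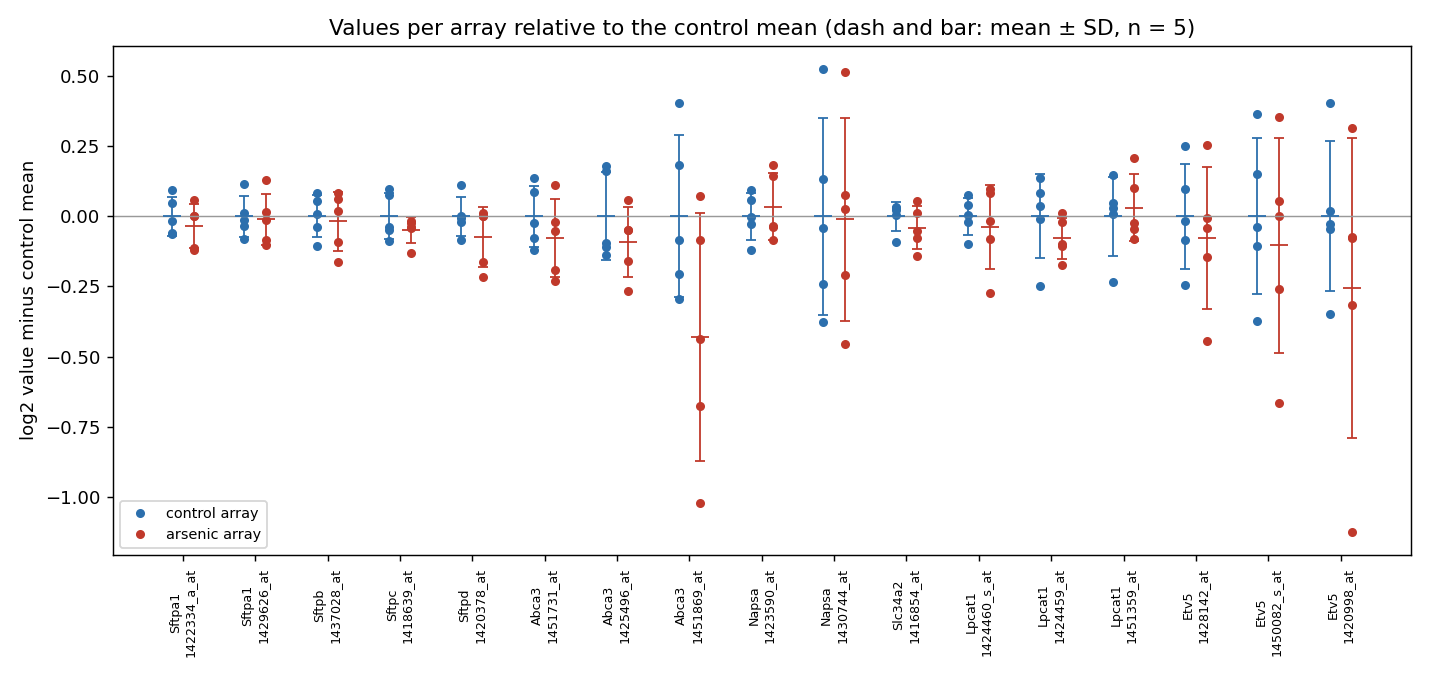
Value of each of the 17 kept probe sets on each array minus its control mean (log2, vertical axis), control arrays in blue and arsenic arrays in red, with a dash and bar for the mean ± SD of each group (n = 5). Arsenic and control points overlap for every probe set; Abca3 1451869_at and Etv5 1420998_at spread the most.

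Although none passed between the groups, the genes varied together from animal to animal. With the brightest probe set of each of the 9 genes, all 36 pairs had a positive r over the 10 arrays. 12 of the 36 passed an adjusted permutation p of 0.05 for r, and 8 passed for both r and Spearman's rho. As a background, pairs of the 867 genes with a mean of at least 12 had a median r of 0.04, with 52.9% of pairs positive and 5.19% at 0.7 or more. The share of these background pairs that would pass the permutation threshold was not computed. The 12 and the 8 therefore have no matching share. The 36 pairs share the same arrays and normalization and are not independent of each other.

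Sftpa1 and Sftpd, the collectin pair, were the closest (r = 0.908, permutation p = 6e-05, adjusted p = 0.00216; rho = 0.976, permutation p = 5e-05, adjusted p = 0.0018). Without arsenic animals 3 and 4, the farthest from the Sftpa1 median, r was 0.82. Among protein-coding genes in RefSeq's order, only the mannose-binding lectin gene Mbl1 lies between them. Sftpa1 also followed Sftpb (r = 0.832, permutation p = 0.00345, adjusted p = 0.0237; rho = 0.842, permutation p = 0.0037, adjusted p = 0.019; r = 0.682 without the same 2 animals). With Sftpc it gave r = 0.808 (permutation p = 0.00395, adjusted p = 0.0237), rho = 0.867 (permutation p = 0.00216, adjusted p = 0.019) and r = 0.822 without them. Sftpb followed Sftpd (r = 0.75, permutation p = 0.0107, adjusted p = 0.0387; rho = 0.891, permutation p = 0.00107, adjusted p = 0.0128; r = 0.826 without arsenic animal 4 and control animal 4). Sftpb and Sftpc were less close to each other (r = 0.526, adjusted permutation p = 0.173).

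A second close pair was Slc34a2 and Etv5 (r = 0.89, permutation p = 0.00021, adjusted p = 0.00378; rho = 0.927, permutation p = 0.00037, adjusted p = 0.00666). Leaving out arsenic animal 4 and control animal 4 gave r = 0.71. Both genes are low in these 2 animals, as their values above show. Napsa followed Slc34a2 (r = 0.753, adjusted permutation p = 0.0413; rho = 0.842, adjusted p = 0.019; r = 0.725 without arsenic animals 2 and 5). Napsa also followed Lpcat1 (r = 0.723, adjusted permutation p = 0.0413; rho = 0.855, adjusted p = 0.019), with r of 0.596 without the same 2 animals.

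Other pairs ranged widely. Sftpb followed Lpcat1 (r = 0.749, permutation p = 0.00953, adjusted p = 0.0387; rho = 0.83, permutation p = 0.00496, adjusted p = 0.0223), with r of 0.843 without arsenic animal 4 and control animal 4. Abca3 and Lpcat1, the lipid transporter and the lipid enzyme, passed for r only (r = 0.803, permutation p = 0.0025, adjusted p = 0.0237; rho = 0.709, adjusted p = 0.0768). Leaving out arsenic animal 3 and control animal 2 gave r = 0.768. Sftpb and Abca3 also passed for r only (r = 0.767, adjusted permutation p = 0.0387; rho = 0.636, adjusted p = 0.114). At the other end, Sftpc and Etv5 had r = 0.02 (adjusted permutation p = 0.974) and Sftpc and Napsa r = 0.01. Sftpd and Lpcat1 had r = 0.781 (adjusted permutation p = 0.0387), which fell to 0.32 without arsenic animals 3 and 4, so the relation rests on those animals. For Sftpb and Slc34a2, r was 0.843 (adjusted permutation p = 0.0237), while rho was 0.661 (adjusted p = 0.113) and r fell to 0.593 without arsenic animal 4 and control animal 4.

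The upstream bases of the Slc34a2 and Etv5 starts are shown as the second pair that moved together, with matches to the same motifs and to CCGGAA in capitals.
Slc34a2, chr5:53049103-53049352, plus strand: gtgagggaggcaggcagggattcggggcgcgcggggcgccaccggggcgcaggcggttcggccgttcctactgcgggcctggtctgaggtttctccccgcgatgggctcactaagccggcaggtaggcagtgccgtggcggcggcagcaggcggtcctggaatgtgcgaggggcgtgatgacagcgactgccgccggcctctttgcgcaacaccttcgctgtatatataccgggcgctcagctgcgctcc
Etv5, chr16:22439571-22439820, minus strand: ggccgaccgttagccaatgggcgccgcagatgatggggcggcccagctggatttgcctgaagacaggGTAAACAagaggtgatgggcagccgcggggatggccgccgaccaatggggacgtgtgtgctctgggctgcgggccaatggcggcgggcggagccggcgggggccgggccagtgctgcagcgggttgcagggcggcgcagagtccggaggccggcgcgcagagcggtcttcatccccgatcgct

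The Etv5 stretch held GTAAACA, a match to GNAAACA, at 183 to 177 bases before the start. None of the 4 motifs was spelled out in the Slc34a2 stretch, which says only that these letters are not in this window. RefSeq's table has 2 starts for Etv5, of which 1 is shown.

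Transcripts of other organs varied between these lungs, so their levels are given beside the surfactant genes. The kidney marker level, the mean of 7 markers that passed the filter of 17 listed, ranged from 4.69 to 7.61 in control and from 6.86 to 8.80 in arsenic animals, a difference of 1.19. The filter itself bears on that difference, since Slc22a12, a urate transporter, passed it through 5 arsenic arrays and 1 control array, so no test is read from the filtered level. Over all 16 kidney markers with a probe set, without the filter, the difference was 0.65 (exact permutation p = 0.0952, two-sided). Of the other 10 kidney markers, 9 were under the filter and 1 had no probe set of its own, and the defining nephron genes Slc12a3, Aqp2, Nphs1 and Kl were among the dim ones. The androgen-regulated kidney transcript Kap was at 2.26 in control animal 1 and at 13.40 in arsenic animal 4, the lowest and highest animals of that level. The heart marker level (6 of 6 markers) ranged from 8.08 to 10.86 in control and from 7.69 to 11.05 in arsenic animals. Of 7 liver markers, 6 were under the filter and 1 had no probe set of its own.

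Arsenic animal 4, with the highest kidney level, had the lowest Slc34a2, Sftpb and Etv5. Over the 10 arrays the level of the 7 filtered kidney markers and Slc34a2 had r = -0.735 and rho = -0.721. Neither passed the adjustment over the 45 relations of 9 genes with 5 marker levels (adjusted permutation p = 0.208 and 0.175). The filter bears on this level, so these p-values are not read as a test. With each group's mean subtracted, r was -0.709. Without arsenic animal 4 and control animal 1, r was -0.669. With the level of the 7 filtered kidney markers as a covariate, none of the 17 passed. Slc34a2 differed by 0.02 between the groups in that fit, Etv5 by 0.08 and Napsa by 0.12 (at the brightest probe sets). The level itself differed by 1.19 between the groups, so the fit cannot fully separate it from arsenic. Lpcat1 was lowest where the heart level was highest, in arsenic animal 3 (r = -0.691, rho = -0.818, adjusted permutation p = 0.208 and 0.165). Its r without arsenic animal 5 and control animal 2 was -0.685.

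The mean marker levels of 6 other lung cell types overlapped between the groups, with exact permutation p-values of 0.127 to 0.913. The level of 10 markers of alveolar type 1 cells ranged from 13.23 to 13.40 in control and from 13.19 to 13.37 in arsenic animals (exact permutation p = 0.77, two-sided). It was lowest in arsenic animal 3, where Sftpc was also lowest, and had r = 0.757 and rho = 0.806 with Sftpc (permutation p = 0.0114 and 0.00732, adjusted p = 0.208 and 0.165). Without arsenic animal 3 and control animal 1, r was 0.672. The level of 10 club cell markers ranged from 13.28 to 14.21 and from 13.15 to 14.15, and was low in arsenic animal 5 and control animal 2, in which Etv5 was highest. That relation had r = -0.692 (permutation p = 0.0297, adjusted p = 0.208) and vanished without these 2 animals (r = -0.000745). The ciliated level (8.99 and 9.36) and the heart level (7.69 and 8.08) were also lowest in arsenic animal 5 and control animal 2. The club markers did not vary alike. Scgb3a1 ranged from 8.80 to 15.24 over the arrays, the widest of the 10, and Scgb1a1 from 16.17 to 16.32. The fibroblast level (9 markers) ranged from 11.83 to 12.12 in control and from 11.64 to 12.04 in arsenic animals, a difference of -0.15 (exact permutation p = 0.127). The groups did not overlap for 1 of its 9 markers, against 3.63% of all genes taken with 1 probe set each, and the median difference of the 9 was -0.11. That marker was the collagen gene Col3a1, at 13.13 ± 0.11 in control and 12.74 ± 0.10 in arsenic animals (SD, n = 5 each). Its adjusted p was 0.0807 by limma. The alveolar macrophage level (8 markers) differed by 0.13 and overlapped. In all, 0 of the 45 relations passed the adjusted threshold.

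**Figure D5:**
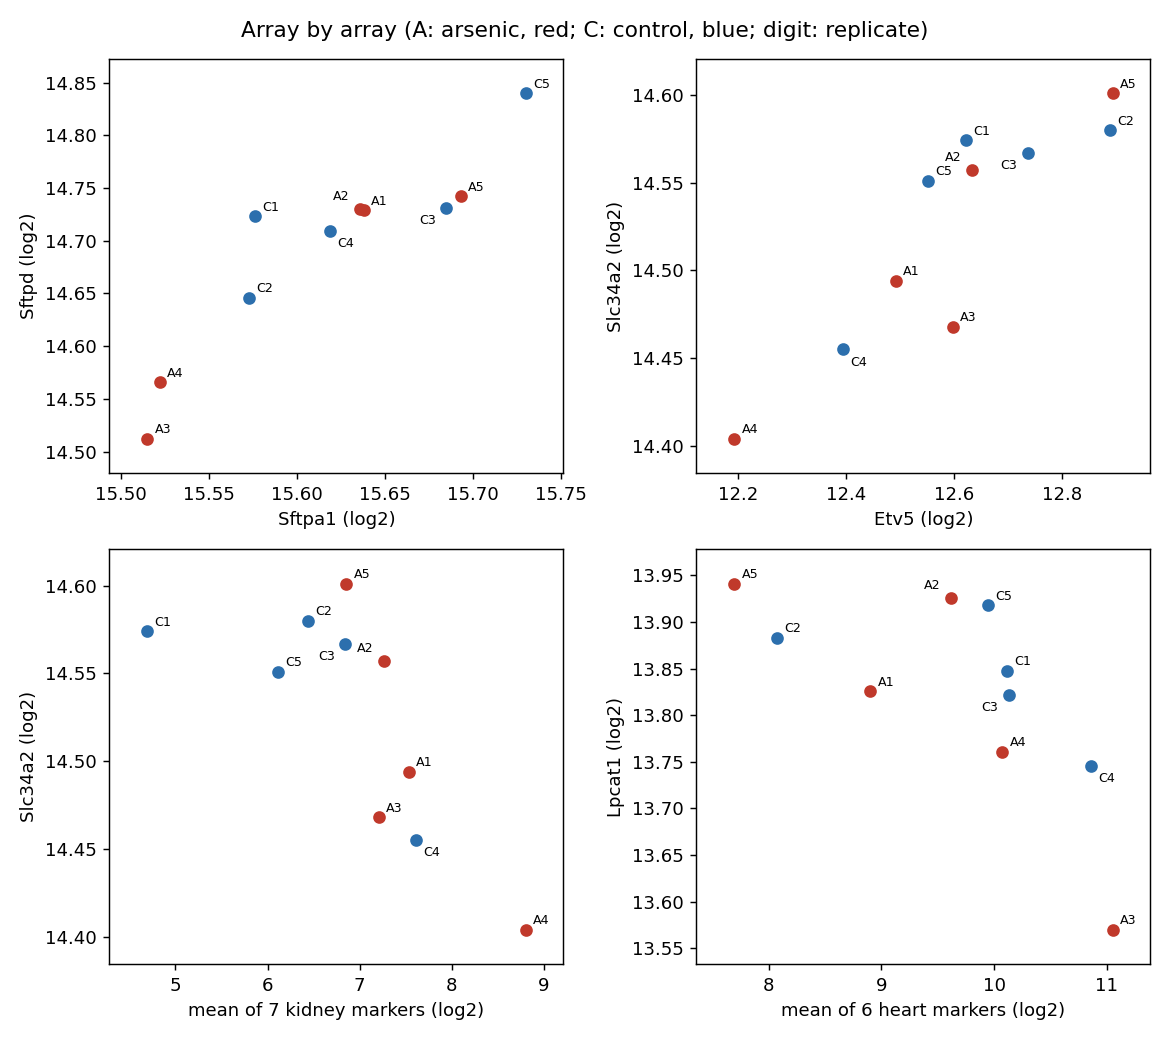
Array-by-array values (log2) of Sftpd against Sftpa1, Slc34a2 against Etv5, Slc34a2 against the mean of 7 kidney markers and Lpcat1 against the mean of 6 heart markers, with arsenic arrays (A) in red and control arrays (C) in blue. The upper panels rise (r = 0.908 and 0.89) and the lower panels fall (r = -0.735 and -0.691). Red and blue points mix, except along the kidney axis. There control animals 1, 2, 3 and 5 (4.69 to 6.84) lie below all arsenic animals (6.86 to 8.80), and control animal 4 lies among these.

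The genes around surfactant were read from lists, with the brightest kept probe set for each gene and the fit over all probe sets. Among all 11332 genes taken this way 47 passed the threshold (0.415%), 10.4% had an unadjusted p under 0.05 with a higher and 4.96% with a lower arsenic mean, and 3.63% had groups that did not overlap. Their median difference was 0.06. The counts of each list stand against these shares.

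Of 25 genes tested for synthesis of surfactant lipid, 0 passed, 4 were higher and 1 lower at an unadjusted p under 0.05, and the median difference was 0.10. The groups did not overlap for 3 of them. Lpin2, a phosphatidate phosphatase, had 12.14, 12.06, 11.95, 12.26 and 12.11 in arsenic and 11.65, 11.72, 11.60, 11.82 and 11.83 in control animals, all 5 arsenic values lying above all 5 controls. Its difference was 0.38 (adjusted p = 0.0838 by limma). It passed under limma's trended prior and with array weights, but under no other alternative and in no fit that left out 1 animal. The other kept Lpin2 probe sets differed by 0.36, 0.39 and -0.28, the last at 1446316_at, where the groups overlapped. The related Lpin1 differed by 0.26 at its brightest probe set and by 0.31 at the other. Acaca, acetyl-CoA carboxylase, differed by 0.19 at its brightest probe set. At 1427595_at it differed by -0.23 and the groups overlapped, so its probe sets disagree. Acsl4, which activates polyunsaturated fatty acids, differed by -0.48 and overlapped.

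Of 23 genes for lamellar bodies, secretion and recycling, 0 passed, and 3 were higher and 1 lower at an unadjusted p under 0.05, with a median of 0.03. Hps4, a subunit of a complex that forms lysosome-related organelles, differed by 0.39 with groups that did not overlap (adjusted p = 0.125 by limma). Nedd4, the ubiquitin ligase that sorts surfactant protein C precursor, differed by -0.30, the syntaxin Stx2 by 0.21, and Csf2, the cytokine that macrophages need to clear surfactant, by 0.62.

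Of 19 regulators of type 2 cell identity, 0 passed, and 3 were higher and 2 lower at an unadjusted p under 0.05, with a median of 0.03. Cebpa, a factor of type 2 cell maturation, had 11.44 to 11.83 in arsenic and 11.06 to 11.41 in control animals, which did not overlap, and differed by 0.37 (adjusted p = 0.13 by limma). Nfib differed by -0.54, Pparg by 0.39 and Erbb3, a receptor for neuregulin, by 0.19. Nkx2-1 and Foxa2, the factors named for the motifs above, differed by 0.03 and 0.05, and Nr3c1, the glucocorticoid receptor, by -0.54 (adjusted p = 0.259 by limma).

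Around Etv5, 0 of 12 genes of FGF and ETS signalling passed, and at an unadjusted p under 0.05 there were also 0. Their median difference was -0.06. Fgfr2, the receptor, differed by -0.17, its ligand Fgf7 by -0.47, and the feedback inhibitor Spry4 by -0.44. Another inhibitor, Spred2, differed by 0.17 at its brightest probe set and by -0.65 at 1441415_at (adjusted p = 0.0658 by limma), where the groups did not overlap, so its probe sets disagree.

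Of 22 other markers of type 2 cells, 0 passed, 0 were higher and 3 were lower at an unadjusted p under 0.05, with a median of -0.06. Those 3 were Ank3, Egfl6 and Itih4, at -0.49, -0.40 and -0.28, and Ank3 had an adjusted p of 0.152 by limma. Cftr, the chloride channel, differed by 0.73 (adjusted p = 0.309 by limma) at a dim probe set that ranged from 3.93 to 5.94, around the filter. Cxcl15, the lung chemokine lungkine, differed by 0.00, and Lgi3, the gene next to Sftpc, by 0.02.

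Of 11 genes of a transitional epithelial state, which type 2 cells take as they turn into type 1 cells, 1 passed, and 3 were higher and 0 lower at an unadjusted p under 0.05, with a median difference of 0.04. Cdkn1a, the cell cycle inhibitor p21, had 10.65 ± 0.28 in control and 11.66 ± 0.28 in arsenic animals (SD, n = 5 each), a difference of 1.00 (adjusted p = 0.0367 by limma), with groups that did not overlap. It rose also at a second probe set, 1421679_a_at, by 1.44 (adjusted p = 0.0403). The other 2 were Ndrg1, a stress-responsive gene, which differed by 0.54 (adjusted p = 0.164 by limma), and Sfn, the 14-3-3 sigma protein. Sfn differed by 0.50 (adjusted p = 0.274 by limma) at a dim probe set that ranged from 4.58 to 5.91. The other 3 kept probe sets of Ndrg1 differed by 0.54, 0.47 and 0.58, and at 2 of them (1420760_s_at and 1423413_at) the groups did not overlap. The keratins of the same list differed by 0.12 (Krt7), -0.001 (Krt8), 0.07 (Krt18) and -0.03 (Krt19), and the groups overlapped for each. Cdkn1a and Ndrg1 are transcribed by many cell types. The call was lost without the filter on dim probe sets (adjusted p = 0.116 by limma) and with a block for the replicate number (0.091). A covariate for the kidney level (0.14) or the heart level (0.0532) lost it too, as did omitting both arsenic animal 4 and control animal 2 (0.106). The kidney level differed by 1.19 between the groups, so a fit with that covariate cannot fully separate it from arsenic. The call was also lost in 8 of the 10 fits that left out 1 animal (0.054 to 0.121). It stayed without arsenic animal 1 and without control animal 5.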

How the data were processed

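Trizol-extracted lung RNA was purified on Qiagen columns and hybridised to Affymetrix Mouse430_2 arrays, per the labels' protocols. The authors deposited log2 values made with GCRMA, per the submitters' processing notes; its version is not given in the sources used here. GCRMA corrects background by probe sequence and normalizes between arrays, and pulls dim values towards a floor. Scanner files, and so saturation and detection calls, were not used here.

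Groups came from the titles; the treatment field of control animal 4 gives no dose. Probe sets were named from the platform annotation (34958 with 1 symbol, 932 with several, 9211 not listed), and 64 control probe sets were left out. The comparison used limma 3.58.1, lmFit with eBayes (R 4.3.3, 2.65 prior degrees of freedom), and was tested on simulated data. Correlations used 100000 permutations, and marker levels the exact test over 252 splits. Genes named were all members, up to 4 per list with the smallest p, Nkx2-1, Foxa2, Cebpa, Scgb1a1, Fgfr2 and Nr3c1, genes of the 10 brightest probe sets, and defining markers near the floor. Cxcl15, Lgi3, Kap, Slc22a12, Col3a1, Scgb3a1, Krt8, Krt18 and Krt19 were named after their values were seen. Members and lists were chosen with earlier results of these data known. Alternatives were other filters, 1 probe set a gene, centring by the median or by quantiles, eBayes with a trend or robust, weighted arrays, a replicate block, the kidney level and leaving out arrays; the heart level as a covariate was added after seeing the data.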

Additional observations from a re-analysis of the deposited data

Results flagged for a closer look

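In 3 of 44 groups of 5 animals examined, 1 animal lay far from the other 4 for its group's range; chance alone does this in about 1 in 20 groups. Sftpc (1418639_at) was 15.95 in arsenic animal 3, against 16.04 to 16.07 in the other 4 arsenic animals. Slc34a2 (1416854_at) was 14.45 in control animal 4, against 14.55 to 14.58 in the other 4 controls. The dim Lpcat1 probe set 1420294_at, which was under the filter, was 3.459 in control animal 5, against 3.11 to 3.208 in the other 4.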

How the results depend on the processing

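Under the 12 alternatives that were run besides leaving out single animals, and in the 10 fits that each left out 1, the count of surfactant and type 2 cell probe sets past the threshold stayed at 0, and the lowest adjusted p was 0.204, for Abca3 1451869_at. Directions were less stable: 23 of 195 values changed sign, none of them past the threshold. Median centring shifts the difference of every probe set by the same amount. With it the median over all probe sets went from 0.0257 to 0.0889, and that of the 17 from -0.0506 to 0.0126. Why values changed sign under the other settings was not tested. Median centring gave Sftpa1 0.0274 and 0.0519 (1422334_a_at and 1429626_at), Sftpb 0.0447, Sftpc 0.0126, Napsa 1430744_at 0.0529, Slc34a2 0.0227 and Lpcat1 1424460_s_at 0.0248. The kidney covariate gave Sftpb 0.0356, Napsa 1430744_at 0.128, Slc34a2 0.0192, Lpcat1 1424460_s_at 0.00669 and Etv5 0.0809, 0.119 and 0.0956. Leaving out arsenic animal 4 and control animal 2 gave Sftpb 0.0201, Napsa 1430744_at 0.112 and Etv5 0.0781, 0.128 and 0.0619. Array weights gave Sftpa1 1429626_at 0.0148, Napsa 1423590_at -0.00732 and Lpcat1 1451359_at -0.0082, and quantile normalization gave Napsa 1430744_at 0.0615. Leaving out 1 animal turned 16 of 170 values: Sftpa1 1429626_at ran from -0.0461 to 0.0175, Sftpb from -0.045 to 0.0179, Napsa 1423590_at from -0.00353 to 0.0629 and 1430744_at from -0.142 to 0.121, Lpcat1 1424460_s_at from -0.0725 to 0.0203 and 1451359_at from -0.0274 to 0.0679, and Etv5 1428142_at from -0.159 to 0.0156 and 1450082_s_at from -0.218 to 0.0372.

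Of all probe sets, 99 passed; 19 did without the filter, where more probe sets are tested, 54 with 1 probe set a gene, 167 with array weights, 4 with the kidney covariate, 0 without arsenic animal 4 and control animal 2, and 12 to 97 with 1 animal left out. The kidney level was higher on average with arsenic, so the fit with that covariate cannot fully separate it from arsenic. Replicate numbers are shared by the groups, and whether they pair the animals cannot be decided from 5 correlations. The deviations of same-numbered animals correlated above 0.1 in 1 of 5 pairs, and 0 animals were closest to their own number. With the replicate block 4 probe sets passed, and 0 genes of the lists (Cdkn1a at an adjusted p of 0.091 by limma). Of the list genes, 1 passed (Cdkn1a), and 0 did without the filter, with the kidney or heart covariate or without both animals, 2 with the trended prior or with array weights (Lpin2 joining), and 0 to 1 with 1 animal left out. The kidney level difference of 1.19, over markers that the filter chose, was 0.65 over all 16 markers (exact permutation p = 0.0952). It was 1.68 over the 2 above the 75th percentile and 0.899 without arsenic animal 4 and control animal 2. With 1 animal left out it was 0.78 to 1.51. The filter bears on each of these levels except that of all 16 markers, so no test is read from the filtered ones.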
